A study of Homo sapiens with 4 samples.

Results

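The 38 genes described here encode enzymes that make cholesterol and fatty acids in the cell, together with proteins that control these enzymes. They were listed by gene name and pathway role, with earlier results of these data known, and fall into a sterol arm of 17 genes, a fatty acid arm of 16 genes and 5 regulators and carriers. Each was taken from the deposited transcript table through the symbol paired with its transcript identifier, and where a gene had several transcripts, that with most counts was used. All 38 genes were found among 34738 named genes, through 77 transcripts, and all 38 had a mean of 50 counts or more, a minimum that 15510 named genes passed.

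Total RNA was sequenced from MDA-MB-231, a human breast cancer cell line of basal and mesenchymal type (the parental line), and from its subline MDA-MB-231-LM2 (LM2), which readily forms lung metastases. Each line has 2 samples in the labels but a single column in the table, and it is not stated whether this column combines both samples. Both cell lines received 10% FBS, MDA-MB-231 in Leibovitz L-15 medium and LM2 in DMEM. By the methods of the study, MDA-MB-231 was kept in air alone and LM2 in air with CO2. The effects of medium and atmosphere and that of the cell line therefore cannot be told apart. The labels name no edited gene and no drug in either group. With a single column for each line there is no replicate check, no test and no p-value. Ratios divide the LM2 count by the parental count, each first divided by its column total (128985870 and 130689252 counts), and are mostly given as log2. Their 95% intervals (Clopper-Pearson, exact) cover counting error only. In bulk RNA, fewer cells with a transcript and less of it per cell cannot be told apart.

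The columns carried the markers of their label. The mesenchymal gene VIM had 550 RPKM (counts per length of transcript and column total) in the parental line and 951 RPKM in LM2, and AXL had 114 and 85.9 RPKM. The estrogen receptor gene ESR1 had 2 and 8 counts, the progesterone receptor gene PGR 7 and 2 counts, and the epithelial gene CDH1 13 and 0 counts. EPCAM was low, with 1.61 and 1.60 RPKM. ERBB2 had 4.91 and 3.22 RPKM, which was not low beside the medians of 3.12 and 2.98 RPKM over all genes past the minimum. Of markers of other cells, PTPRC had 8 and 7 counts, ALB 3 and 0, and PECAM1 48 and 343.

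Cholesterol and fatty acids are both built from acetyl-CoA. In the sterol arm, acetyl-CoA becomes mevalonate, isoprenoid units and squalene, which is closed to lanosterol and trimmed to cholesterol. In the fatty acid arm it becomes malonyl-CoA and palmitate, which is then elongated, desaturated and activated for use in lipids. Genes of both arms are targets of the SREBP transcription factors, which are held in the endoplasmic reticulum by INSIG proteins when sterols are plentiful and bind sterol regulatory elements, often beside CCAAT boxes bound by NF-Y. SREBP2, from SREBF2, is known mainly for sterol genes and SREBP1c, from SREBF1, for fatty acid genes.

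The DNA just before the start of 6 genes is shown because they are the SREBP genes themselves and the genes with the most extreme ratios of each arm, HSD17B7 and FDPS in the sterol arm and ELOVL7 and FADS3 in the fatty acid arm. Each is the 250 bases before the start site, 5′ to 3′ on the strand of the gene, from RefSeq (GRCh38.p14). Capitals mark the letters CCAAT on either strand (ATTGG where it lies on the other strand) and the sterol regulatory element letters CACCCCAC or TCACNCCAC, 2 motifs that overlap each other.
SREBF2 (chr22:41832855-41833104, plus strand): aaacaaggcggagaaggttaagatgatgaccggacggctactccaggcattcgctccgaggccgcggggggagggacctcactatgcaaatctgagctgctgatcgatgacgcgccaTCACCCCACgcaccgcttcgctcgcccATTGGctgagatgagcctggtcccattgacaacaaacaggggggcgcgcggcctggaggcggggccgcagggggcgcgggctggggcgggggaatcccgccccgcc
SREBF1 (chr17:17836987-17837236, minus strand): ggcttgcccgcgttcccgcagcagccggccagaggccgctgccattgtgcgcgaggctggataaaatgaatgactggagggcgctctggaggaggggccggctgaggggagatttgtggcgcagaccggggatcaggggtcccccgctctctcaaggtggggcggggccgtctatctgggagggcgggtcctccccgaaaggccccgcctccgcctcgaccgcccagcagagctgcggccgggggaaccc
HSD17B7 (chr1:162790452-162790701, plus strand): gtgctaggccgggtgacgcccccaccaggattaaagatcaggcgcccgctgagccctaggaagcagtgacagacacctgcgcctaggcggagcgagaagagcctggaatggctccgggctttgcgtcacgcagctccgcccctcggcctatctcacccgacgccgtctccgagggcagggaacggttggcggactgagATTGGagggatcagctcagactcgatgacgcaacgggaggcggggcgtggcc
FDPS (chr1:155308616-155308865, plus strand): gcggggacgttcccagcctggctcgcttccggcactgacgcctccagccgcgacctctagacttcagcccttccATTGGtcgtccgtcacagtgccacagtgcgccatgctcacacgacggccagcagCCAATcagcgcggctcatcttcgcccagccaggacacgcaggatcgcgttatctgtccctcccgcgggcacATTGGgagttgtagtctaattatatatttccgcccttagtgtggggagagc
ELOVL7 (chr5:60844270-60844519, minus strand): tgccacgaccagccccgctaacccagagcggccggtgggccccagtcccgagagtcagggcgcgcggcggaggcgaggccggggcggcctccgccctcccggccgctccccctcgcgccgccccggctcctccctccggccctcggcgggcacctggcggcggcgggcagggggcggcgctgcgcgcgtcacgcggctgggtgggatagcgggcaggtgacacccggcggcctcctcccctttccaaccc
FADS3 (chr11:61891546-61891795, minus strand): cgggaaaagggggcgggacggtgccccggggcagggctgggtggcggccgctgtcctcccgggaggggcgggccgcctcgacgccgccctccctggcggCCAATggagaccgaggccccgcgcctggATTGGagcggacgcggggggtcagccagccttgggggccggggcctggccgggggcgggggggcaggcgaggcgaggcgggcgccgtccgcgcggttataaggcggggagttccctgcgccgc

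SREBF2 held the sterol regulatory element letters once, 132 bases before the start, with a CCAAT match 106 bases before it. The windows of SREBF1 and ELOVL7 held no match. FDPS held 3 CCAAT matches, 176, 122 and 51 bases before the start, and FADS3 held 2. Over windows of 250 bases before to 50 bases after the start, searched on both strands, CCAAT was found in 13 of 15 sterol arm genes with a window (86.7%) and in 11 of 15 fatty acid genes (73.3%), beside 43.2% of the 10977 genes that passed the count minimum and had a window, and 34.6% of all 35116 windows. At least 2 CCAAT matches were found in 10 of the 15 sterol genes and 5 of the 15 fatty acid genes, beside 16.2% of those 10977 genes. NSDHL and MVK held 5 each. CACCCCAC was found in 0 of the 15 sterol genes and in 1 of the 15 fatty acid genes, beside 3.51% of those 10977 genes. The fatty acid gene was ACSL1, with a match in 1 of its 5 windows, beside 2.79% of all windows. TCACNCCAC was found in the same window of ACSL1 and in that of SREBF2, beside 1.45% of those 10977 genes and 1.13% of all windows. FDFT1, SQLE and FASN had no window. Genes with several windows were counted by the window with the most matches, and a match is a description of letters, not of binding. Only these exact letters were searched, so the lack of a match does not show that a gene has no such element.

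The sterol arm was higher in LM2. Of its 17 genes, 15 had a ratio over 1, beside 49.6% of the 15510 genes. In the same 15 the counting interval lay above 1, beside 37.0% of all genes. Intervals narrow as counts rise, so these interval shares are not like for like. The median parental level was 10.2 RPKM in the arm and 3.12 RPKM over all genes. The median log2 ratio of the arm was 0.33 (0.22 to 0.52 from the order of the genes, which are not replicates), or 1.26-fold, while that of all genes was −0.00. No sterol gene was over 2-fold higher, beside 4.58% of all genes, and none was over 2-fold lower, beside 6.85%. Over 1.5-fold higher were 3 of 17, beside 10.7% of all genes. The ratios thus lay mostly on 1 side and were moderate in size. The summed level of the 17 genes was 284 RPKM in MDA-MB-231 and 381 RPKM in LM2.

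**Figure D1:**
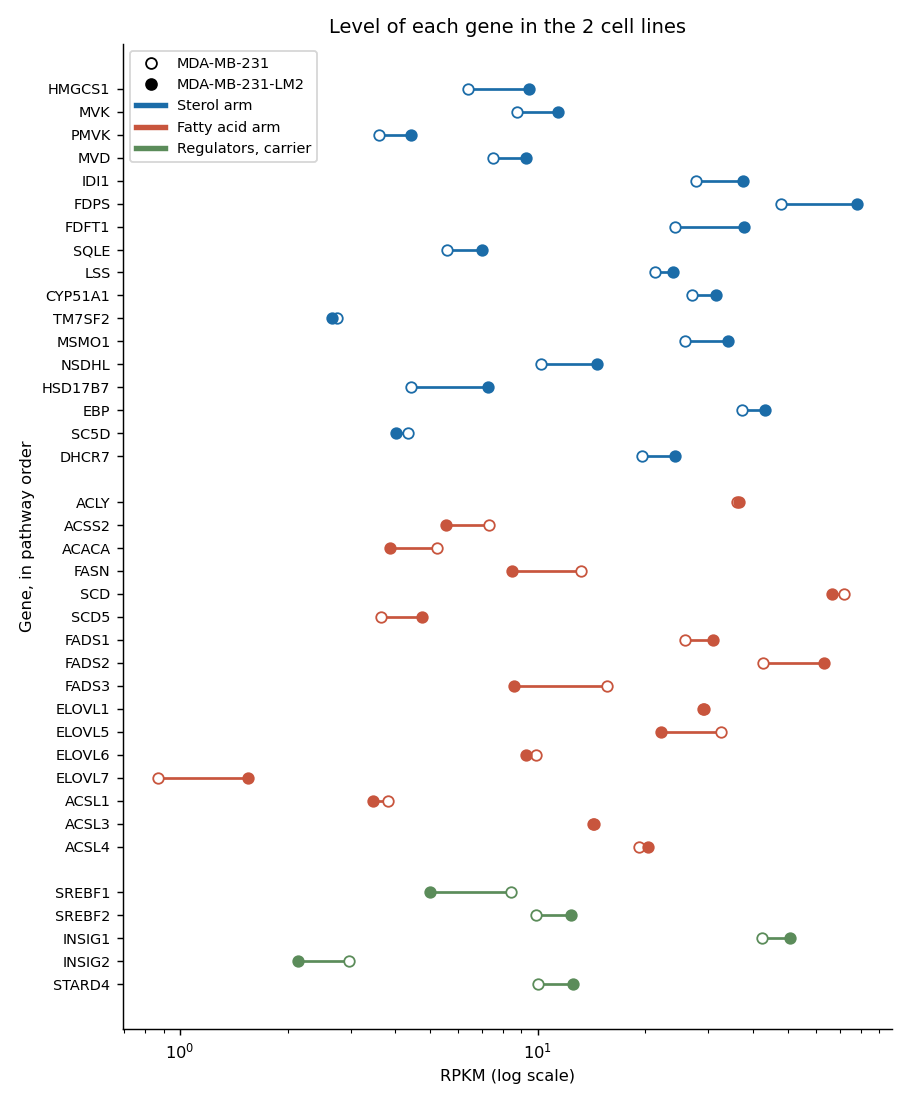
Level of each of the 38 genes in RPKM (log axis) in MDA-MB-231 (open circles) and LM2 (filled circles), 1 column per cell line, with genes in pathway order and a line joining the circles of a gene. In the sterol arm the filled circle lies to the right in 15 of 17 genes, and in the fatty acid arm in 8 of 16 (5 of 16 with the total of NM_ transcripts as scale).

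The 7 members that act between acetoacetyl-CoA and squalene were all higher in LM2, with a median log2 ratio of 0.44 and a summed level of 126 RPKM in the parental line and 188 RPKM in LM2. HMGCS1, which makes HMG-CoA, had 4548 counts in the parental line and 6646 in LM2 (log2 ratio 0.57, interval 0.51 to 0.62). MVK, the mevalonate kinase, had 2378 and 3045 counts, a log2 ratio of 0.38. The next kinase, PMVK, and the decarboxylase MVD had the smallest ratios of these enzymes. PMVK had 613 and 743 counts (0.30, interval 0.14 to 0.45) and MVD 1754 and 2144 counts (0.31, interval 0.22 to 0.40).

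IDI1, which isomerises the isoprenoid unit, had 7739 counts in the parental line and 10351 in LM2 (log2 ratio 0.44). FDPS, which makes farnesyl diphosphate, the branch point toward sterols and protein prenylation, had 9253 and 14960 counts (0.71, interval 0.67 to 0.75, 1.64-fold). FDFT1, the squalene synthase that commits the chain to sterols, had 6647 and 10267 counts (0.65, interval 0.60 to 0.69, 1.56-fold). FDPS and FDFT1 were past 1.5-fold and HMGCS1, at 1.48-fold, lay just below it. FDPS had 47.8 RPKM in the parental line and 78.3 RPKM in LM2, the highest level of the 38 genes there, a place that SCD held in the parental line.

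Counts of 3 of these enzymes may hold reads of genes on the other strand, since the strand setting of the counting is not given. In GENCODE release 29, exons of the other strand covered 32.1% of the exonic bases of FDPS (RUSC1-AS1), 20.1% of those of HMGCS1 (AC114947.2) and 7.52% of those of IDI1 (IDI2-AS1). RUSC1-AS1 had 2648 counts in the parental line and 4159 in LM2 (log2 ratio 0.67), AC114947.2 had 531 and 810 (0.63) and IDI2-AS1 had 913 and 1296 (0.52), and reads of the partners cannot be told apart. In all other members the overlap was under 5%. Without the 3 enzymes the sterol median was 0.30, a value added after the data were seen. The pseudogene FDPSP2 had 404 and 249 counts, against the direction of FDPS.

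The 10 members that act between squalene and cholesterol had a smaller median log2 ratio of 0.26, and their summed level was 158 RPKM in MDA-MB-231 and 192 RPKM in LM2. SQLE, the squalene epoxidase, had 2177 and 2698 counts (log2 ratio 0.33). LSS, which closes the ring to lanosterol, had 12225 and 13488 counts (0.16), and CYP51A1, the lanosterol demethylase, 11346 and 13011 (0.22). Each of these intervals lay above 1, although the differences were small. Of the enzymes that remove methyl groups from C4, MSMO1 had 7505 and 9799 counts (0.40) and NSDHL 2174 and 3071 (0.52). HSD17B7, the ketoreductase of the same complex, had the largest ratio of the arm, with 879 counts in the parental line and 1427 in LM2 (0.72, interval 0.60 to 0.84, 1.64-fold). Its pseudogene HSD17B7P2 had 124 and 197 counts (0.68), and whether reads were split between these near copies is not given.

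In 2 members after squalene the count was not higher in LM2. TM7SF2, a sterol C14 reductase that acts after CYP51A1, had 576 counts in the parental line and 549 in LM2 (log2 ratio −0.05), and its interval of −0.22 to 0.12 held 1-fold. SC5D, the lathosterol oxidase, had 3939 and 3598 counts (−0.11, interval −0.18 to −0.05) and was the only sterol arm gene whose interval lay below 1, beside 38.3% of all genes. Among the late steps, EBP, the sterol isomerase before SC5D, had 5642 and 6459 counts (0.21), and DHCR7, the reductase after SC5D, 6835 and 8303 (0.30). SC5D was thus lower while the enzymes on either side of it in the pathway were higher.

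**Figure D2:**
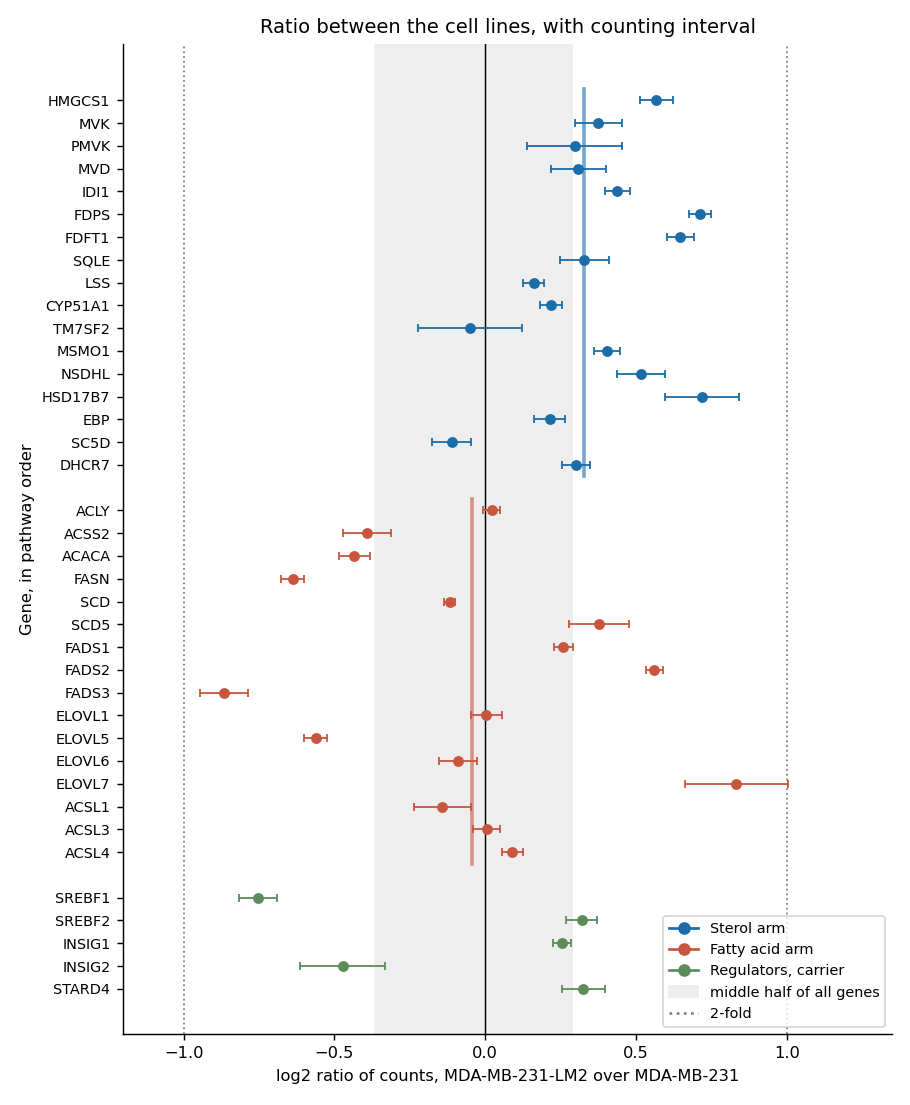
Log2 ratio of counts, LM2 over MDA-MB-231, of each gene, with bars for the 95% counting interval, vertical coloured lines for the arm medians, a grey band from the lower to the upper quartile of all genes (−0.36 to 0.29) and dotted lines at 2-fold. The sterol arm median is 0.33 and the fatty acid arm median −0.04, and no gene lies beyond 2-fold.

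The fatty acid arm had genes on both sides. Of its 16 genes, 8 had a ratio over 1 and 8 under 1, beside 49.6% and 50.4% of all genes. The median log2 ratio was −0.04 (−0.43 to 0.26), and the summed level was 331 RPKM in MDA-MB-231 and 328 RPKM in LM2. The counting interval lay above 1 in 5 of the 16 genes, beside 37.0% of all genes, below 1 in 8, beside 38.3%, and held 1 in 3. These counts depended on the scaling: with the total of NM_ transcripts (RefSeq mRNAs) in place of the column total, a shift of −0.06 for every gene, 5 genes had a ratio over 1 and 11 under 1, and the interval lay above 1 in 4, below 1 in 11 and held 1 in 1. The ratios were spread more widely than in the sterol arm, with an SD over genes of 0.45 against 0.24. ELOVL7 was over 1.5-fold higher, and FASN and FADS3 were over 1.5-fold lower, beside 15.4% of all genes in that direction.

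The enzymes that lead to palmitate were level or lower in LM2. ACLY, which makes acetyl-CoA from citrate for both arms, had 20534 counts in the parental line and 20577 in LM2 (log2 ratio 0.02, interval −0.01 to 0.05). ACSS2, which makes acetyl-CoA from acetate, had 2877 and 2164 counts (−0.39, interval −0.47 to −0.31). ACACA, the acetyl-CoA carboxylase that makes malonyl-CoA, had 7302 and 5333 counts (−0.43, interval −0.49 to −0.38). FASN, the fatty acid synthase, had 14591 and 9249 counts, 13.2 and 8.48 RPKM (−0.64, interval −0.68 to −0.60), or 1.56-fold lower in LM2. The median of these 4 genes was −0.41.

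The desaturases went in both directions. SCD, the stearoyl-CoA desaturase that makes oleate, had the highest level of the arm, with 51385 counts in the parental line and 46737 in LM2 (71.9 and 66.3 RPKM, log2 ratio −0.12, interval −0.14 to −0.10). Its relative SCD5 had 1483 and 1901 counts (0.38). SCD5 was also the only one of 22 genes with several transcripts past the minimum whose transcripts differed in log2 ratio by more than 0.1, its other transcript having 638 and 725 counts (0.20). FADS1, FADS2 and FADS3 lie side by side on chromosome 11. FADS1, the delta-5 desaturase of polyunsaturated fatty acids, had 14914 and 17610 counts (0.26, interval 0.23 to 0.29). FADS2, the delta-6 desaturase, had 17583 and 25598 counts (0.56, interval 0.53 to 0.59). FADS3 had 3631 and 1967 counts (−0.87, interval −0.95 to −0.79), or 1.82-fold lower, the lowest ratio of the 38 genes. The intervals of these 3 neighbours did not overlap, but they cover counting error only and are narrow at counts this high. How often this holds for other neighbouring genes was not computed.

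The elongases and acyl-CoA synthetases were likewise mixed. ELOVL1, an elongase of very long chains, had 6174 counts in the parental line and 6106 in LM2 (log2 ratio 0.00). ELOVL5, which elongates polyunsaturated chains, had 13122 and 8769 counts (−0.56, interval −0.60 to −0.52). ELOVL6, which takes palmitate to stearate, had 4384 and 4065 counts (−0.09). ELOVL7 had the highest ratio of the 38 genes at their lowest level, with 441 and 775 counts or 0.87 and 1.55 RPKM (log2 ratio 0.83, 1.78-fold with an interval of 1.58 to 2.01). This rank depended on the pseudocount: on log2(RPKM + 1) ELOVL7 was at 0.45, below FDPS at 0.70. The synthetases that activate free fatty acids differed little: ACSL1 had 1903 and 1702 counts (−0.14), ACSL3 8150 and 8069 (0.00) and ACSL4 13353 and 14021 (0.09). FADS2 and ELOVL5, whose enzymes act in the same polyunsaturated chain, were both at 1.48-fold, FADS2 higher and ELOVL5 lower in LM2.

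The difference between the arm medians was 0.37 on the log2 scale. Of the 17 sterol genes, 15 lay above the fatty acid median, and 3 of the 16 fatty acid genes lay above the sterol median. The arms overlapped: 8 fatty acid genes lay within the range of the sterol genes, 7 below the lowest of them and 1 above the highest. The gene above the highest was ELOVL7, which no longer lay above it on log2(RPKM + 1). The size of the ratios without their sign was alike, with a median of 0.33 in the sterol arm, 0.32 in the fatty acid arm and 0.32 over all genes. Among the ratios of all genes, the sterol median stood at percentile 77.6 and the fatty acid median at 46.7. There is no replicate check on this difference, and the genes of an arm are not replicates of it.

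**Figure D3:**
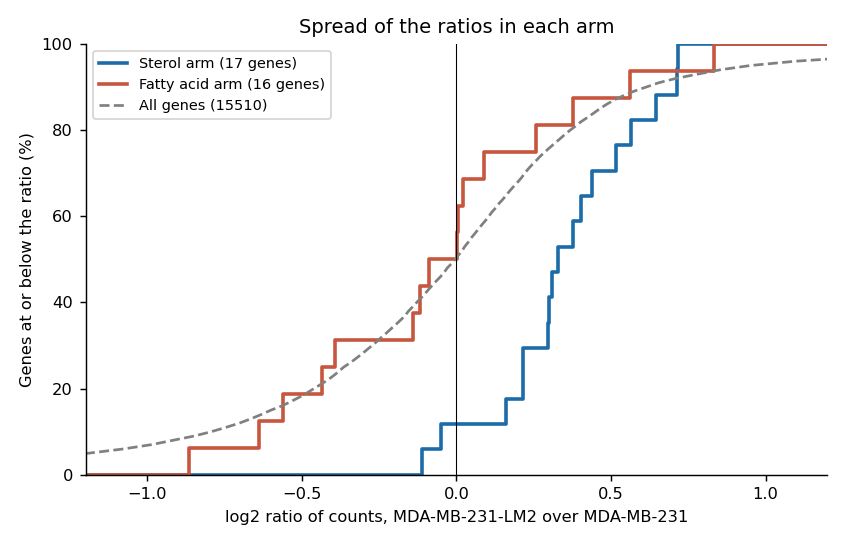
Share of genes (%) at or below each log2 ratio, LM2 over MDA-MB-231, for the 17 sterol genes, the 16 fatty acid genes and all 15510 genes (dashed). The sterol curve lies to the right of the dashed curve over most of its course and is steeper, with quartiles at 0.22 and 0.52, while the fatty acid curve crosses 0 with the dashed curve and has quartiles at −0.40 and 0.13.

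The genes that control the pathway were split. SREBF1 had 5504 counts in the parental line and 3221 in LM2 (log2 ratio −0.75, interval −0.82 to −0.69), or 1.69-fold lower. SREBF2 had 5574 and 6865 counts (0.32, interval 0.27 to 0.37). The SREBP genes thus had nearly equal counts in the parental line, or 8.42 RPKM for SREBF1 and 9.90 RPKM for SREBF2, whose transcript is shorter. The intervals of their LM2 ratios lay on opposite sides of 1. INSIG1, itself a known SREBP target, had 16682 and 19635 counts (0.25, interval 0.22 to 0.28), while INSIG2 had 1002 and 713 (−0.47, interval −0.61 to −0.33). STARD4, a carrier of cholesterol between membranes, had 2957 and 3657 counts (0.33). The table lists 2 transcripts of SREBF1, which had almost the same counts (5504 and 5499 in the parental line), so the forms of SREBP1 could not be separated. Cleavage of the SREBP proteins was not measured.

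The members were also set beside the genes around them on their chromosomes. The median log2 ratio of the 30 nearest genes was between −0.33 and 0.32 for every member, and was beyond 0.5 for 0 of the 38 members, beside 6.70% of all genes. For FDPS it was 0.11, for HSD17B7 0.09, for FASN −0.09 and for SREBF1 0.09. For ACSS2 it was −0.33, next to −0.39 for the gene itself, and for FADS1 0.32, next to 0.26. Sterol genes near their neighbours included PMVK, at 0.30 with a neighbour median of 0.22, and MSMO1, at 0.40 with 0.28. For FADS3 it was 0.31, opposite in sign to the gene. For SC5D, the sterol gene with an interval below 1, it was −0.27, lower than the −0.11 of the gene itself. After subtraction of the neighbours' median from each gene, a setting added after the data were seen, the arm medians were 0.33 and −0.06.

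**Figure D4:**
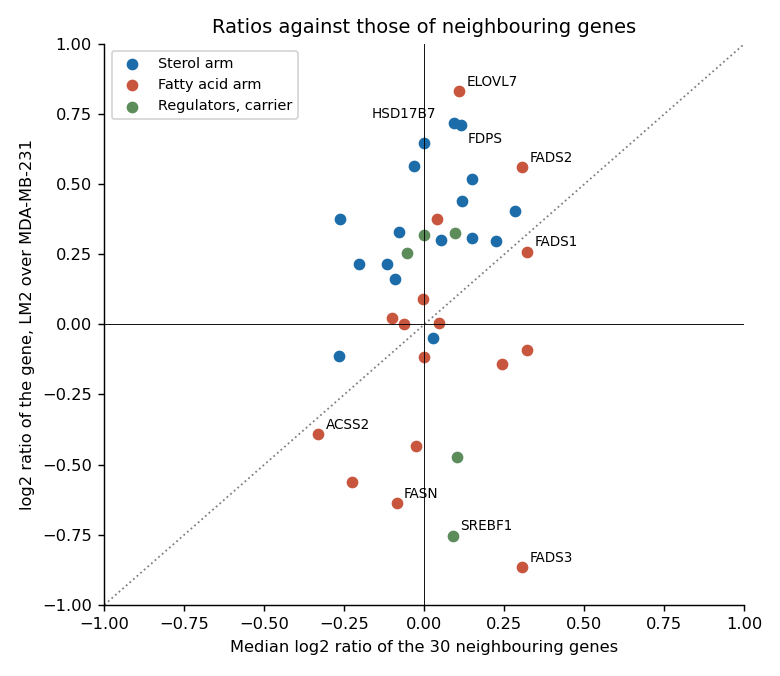
Log2 ratio of each member, LM2 over MDA-MB-231, against the median log2 ratio of its 30 neighbouring genes, with a dotted line where both are equal. The neighbours lie between −0.33 and 0.32, and FASN, SREBF1 and FADS3 lie far below the line while ELOVL7, HSD17B7 and FDPS lie far above it.

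The other gene lists of the pathway had medians between −0.20 and 0.13, all below that of the sterol arm. Of 9 genes for SREBP transport, cleavage and INSIG turnover, 3 had a ratio over 1 and 6 under 1, with a median of −0.20. MBTPS2, the site-2 protease that releases SREBPs, had 847 counts in the parental line and 353 in LM2, or 2.37-fold lower (log2 ratio −1.24, interval −1.43 to −1.06). The median of its neighbours on chromosome X was −0.84. SCAP, the escort of SREBPs, chosen after its value was seen, had 3605 and 3791 counts (0.09). Of 8 further sterol and isoprenoid genes, 4 were over 1 and 4 under 1, with a median of 0.13. ERG28, a scaffold of the C4 demethylation complex that also holds NSDHL and HSD17B7, had 962 and 1585 counts (0.74), and ACAT2, which makes acetoacetyl-CoA, had 6914 and 8781 (0.36).

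Of 18 further fatty acid genes, 13 passed the minimum, 7 over 1 and 6 under 1, with a median of 0.02. MID1IP1, an activator of acetyl-CoA carboxylase, had 6011 counts in the parental line and 3366 in LM2 (log2 ratio −0.82), with a median of −0.53 for its neighbours. In the elongation cycle, the ketoreductase HSD17B12 had 4091 and 6381 counts (0.66) and the dehydratase HACD3 had 7398 and 4934 (−0.57). Of the other genes of this cycle, chosen after their values were seen, the dehydratase HACD1 was at −0.40 and the reductase TECR at −0.32.

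Of 13 genes for sterol efflux, esterification and transport, 11 passed the minimum, and 3 of these were over 2-fold lower in LM2, beside 6.85% of all genes. ABCA1, the pump that loads cholesterol onto apolipoproteins, had 11069 counts in the parental line and 563 in LM2, or 19.4-fold lower (log2 ratio −4.28, interval −4.40 to −4.16), while the median of its neighbours was 0.06. ABCG1, a related pump, had 161 and 2 counts, a ratio 63.8-fold lower with an interval of 21.6-fold to 662-fold lower. ABCG1 passed the minimum only through its high parental count, so its low ratio adds no support to the count of 3. MYLIP, a ubiquitin ligase for lipoprotein receptors, had 1666 and 586 counts, or 2.80-fold lower, and its neighbours had a median of −0.40. The other 8 genes had log2 ratios from −0.29 (NPC1, which exports cholesterol from lysosomes) to 0.19 (LPCAT3, a phospholipid acyltransferase), both named after their values were seen.

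**Figure D5:**
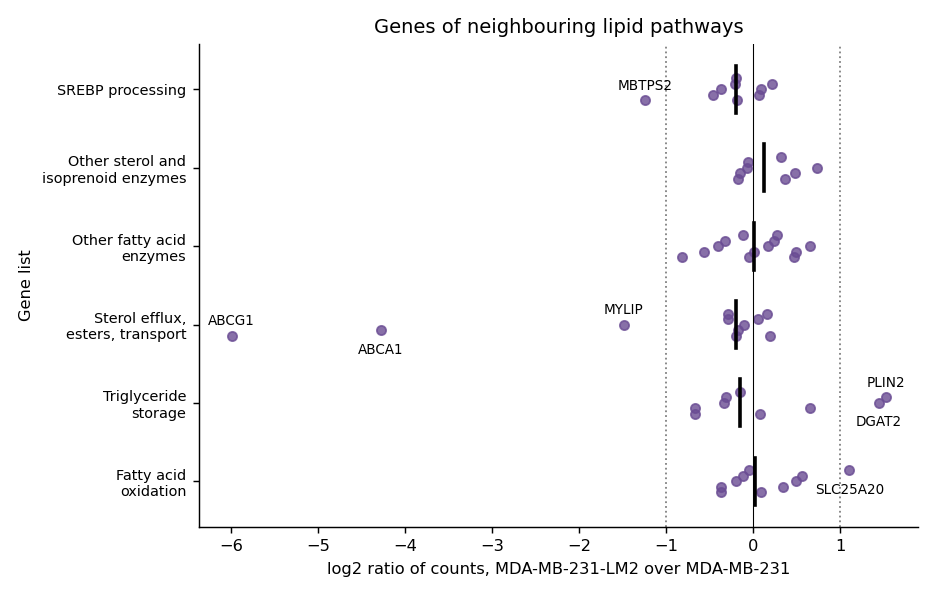
Log2 ratio of counts, LM2 over MDA-MB-231, of the genes past the count minimum in 6 lists of neighbouring lipid pathways (1 point per gene, thick bars for medians, dotted lines at 2-fold, named genes beyond 2-fold). ABCA1 at −4.28 and ABCG1 at −5.99 stand far from the rest, and the list medians lie between −0.20 and 0.13. ABCG1 passed the minimum only through its parental count.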

How the data were processed

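Parental MDA-MB-231 cells and their LM2 subline were analysed from deposited tables of the whole series. Per the labels, the authors used bcl2fastq and TopHat2 (version 2.0.13) with hg19 (GRCh37). Which program counted the reads, with which annotation and whether by strand: not given in the sources used here. For 65423 transcripts, whole read counts deposited by the authors were used unchanged. The RPKM values deposited by the authors followed from count, listed length and column total to a relative difference of at most 4.98e-06. Totals were 130689252 and 128985870 counts, and reads of overlapping transcripts may enter more than once. In the parental column, 131 counts on a transcript of 1 kilobase give an RPKM of 1. The members held 0.229% and 0.248% of the counts, between 441 and 51385 counts per gene and column.

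Symbols were paired with 62331 transcripts through GENCODE release 29 and RefSeq (GRCh38.p14), which also gave the order of genes and the promoter windows. No hg19 coordinates are given. Log2 ratios had 0.5 counts added and were scaled by column totals, and intervals at 95% came from the binomial share of counts. They cover counting error only. With 1 column per cell line edgeR's quasi-likelihood test could not be run, and no other test replaced it. The calculation was tested on simulated data.

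The members and gene lists were chosen with earlier results of these data known. The text names every member and, in the other lists, genes over 2-fold or otherwise up to 3 by size of ratio. Genes named outside this rule are marked, and list members not named count in the totals. Alternatives, some of them added after the data were seen, were TMM and upper-quartile factors (edgeR 4.0.16), size factors (DESeq2 1.42.0), other minimums, transcripts, pseudocounts on RPKM and gene sets. The software was Python 3.11.15 with pandas 2.3.3, numpy 2.4.6, scipy 1.17.1 and matplotlib 3.10.9, and R 4.3.3.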

Additional observations from a re-analysis of the deposited data

How the results depend on the processing

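With 1 column per cell line, no replicate could be left out. No paired analysis was possible because the columns carry no replicate number. Of 50 values of the arm medians and their difference under alternatives, 19 stayed exactly the same, mostly where the setting could not move them: a scaling shifts both arms alike, and other minimums or a choice of NM_ transcripts left all 38 members as they were. The other 31 stayed within the interval of the median, or for the difference within an interval combined from those of both arms. These intervals come from the spread over genes and are wide, so this is a weak check. The sterol median ranged from 0.27 to 0.42, the fatty acid median from −0.10 to −0.01 and the difference from 0.33 to 0.43. Leaving out HMGCS1, IDI1 and FDPS, chosen after the data were seen, gave a difference of 0.35, and subtracting the neighbours' median gave 0.40. Of 418 values of member ratios under alternatives, 150 stayed exactly the same, 242 moved within their counting interval, 26 moved beyond it and 0 turned a called direction. Of these 26, most came with the total of NM_ transcripts as scale, a common shift. Under it, ratios near 0 in ACLY, ELOVL1 and ACSL3 became −0.03, −0.05 and −0.05 with intervals below 1, and the interval of ACSL4 came to hold 1. The fatty acid tally of 5 above, 8 below and 3 holding 1 became 4, 11 and 1. With TMM factors it was 6, 8 and 2, and the sterol tally of 15, 1 and 1 was the same under all 4 other scalings. These tallies were added after the data were seen.

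Counts past 2-fold over all genes, 711 higher and 1063 lower, became 3535 and 4349 with no minimum count, 247 and 420 at a minimum mean of 500 counts, 199 and 274 on log2(RPKM + 1), and 1658 and 2394 at 1.5-fold. Of the members, 0 were past 2-fold in either direction, and 4 higher and 3 lower at 1.5-fold. Depth limits single genes of low count, such as PMVK, TM7SF2 and ELOVL7, by counting error, and the missing replicates limit every ratio.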

Other observations

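Genes that build triglyceride stores or, as lipases, break them down had some of the largest ratios among lipid genes. Of 9 such genes, 4 had a ratio over 1 and 5 under 1, with a median log2 ratio of −0.15, and 2 were over 2-fold higher in LM2, beside 4.58% of all genes. PLIN2, a coat protein of lipid droplets, had 2551 counts in the parental MDA-MB-231 line and 7248 in LM2, or 2.88-fold higher (log2 ratio 1.53). DGAT2, which adds the last acyl chain to triglycerides, had 793 and 2134 counts, or 2.73-fold higher (1.45). DGAT1, which catalyses the same step, had 2059 and 1277 counts (−0.67), opposite in direction. The lipase PNPLA2, which opens droplets, had 1275 and 789 counts (−0.67). DGAT1 and PNPLA2 were chosen after their values were seen.

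Of 10 genes of mitochondrial fatty acid oxidation, 5 had a ratio over 1 and 5 under 1, with a median of 0.02. SLC25A20, the carnitine carrier of the inner membrane, had 337 counts in the parental line and 717 in LM2, or 2.15-fold higher. CPT1A, which makes the acylcarnitines it carries, had 1882 and 2751 counts (log2 ratio 0.57), and CPT2, which turns them back inside, had 743 and 569 (−0.37). CPT1A and CPT2 were chosen after their values were seen. None of these ratios has a replicate check.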
